A study of Bos grunniens and Bos grunniens x Bos taurus with 6 samples.

Results

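The TRIM, F-box (FBXO, FBXL, FBXW), kelch (KLHL, KBTBD) and ASB proteins are large families of ubiquitin ligases and ligase subunits. Members were all genes whose symbol in the deposited table began with 1 of these 7 family names and a number, except TRIM63, FBXO30, FBXO32, FBXO40, KLHL23, KLHL40, KLHL41 and KBTBD13, which the rule left out. The rule found 113 symbols, and for each the gene identifier with most reads under that symbol stood for the gene. Of the 31044 genes of the table, 10397 had at least 30 reads pooled over all libraries, and 55 of the 113 members were among them under their own name. The comparison was of longissimus dorsi, a long back muscle, in 3 samples of yak (Bos grunniens) and 3 of cattle-yak, which is the cross between cattle and yak, sequenced as full-length cDNA on a nanopore. No treatment, age, sex or batch is given in the sources used here. Whether the 3 libraries of a group are different animals is not stated, and the p-values below therefore cover only library-to-library spread, some of which may be technical.

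Ubiquitin ligases attach ubiquitin to chosen proteins and so mark many of them for the proteasome. Most TRIM proteins are ligases with their own RING domain. F-box proteins bind SKP1 and bring substrates to the CUL1 ligase, BTB-kelch proteins (KLHL and KBTBD) bring them to CUL3, and ankyrin repeat and SOCS box (ASB) proteins work with elongin B, elongin C and CUL5. In skeletal muscle, members of these families take part in sarcomere protein turnover, muscle growth and atrophy.

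The libraries held between 2350851 and 2769106 counted reads, and the 55 tested members took 21298 reads in all. The 10 myofibre markers found under their own names (ACTA1 and MYH7 were not) had reads in all 6 libraries and summed to between 153357 and 162185 CPM (counts per library total, scaled as in the deposited table). Markers of macrophages and leukocytes summed to 15.6 to 26.1 CPM in yak and 38.2 to 87.1 CPM in cattle-yak, with 9 of 9 found, 4 of them in every library. Only 5 of them were tested. By edgeR (adjusted p under 0.05) 2 rose and 3 did not pass, with log2 fold changes from 0.73 to 3.53, and limma-voom called 1. Schwann cell markers (5 of 5 found, 2 in every library) summed to 97.5 to 132 CPM in yak and 235 to 307 in cattle-yak. Of 3 tested, 1 rose at an edgeR adjusted p under 0.05 and 2 did not pass, with log2 fold changes from -0.17 to 1.80. Fibroblast markers (7 of 7 found, 6 in every library) summed to 422 to 544 CPM in yak and 250 to 470 in cattle-yak. These ranges overlapped. Of 6 tested, 3 fell by edgeR, DESeq2 and limma-voom alike. The edgeR shares over all genes were 4.92% higher and 5.08% lower. Endothelial markers also overlapped between the groups (39.96 to 51.0 CPM and 48.7 to 101 CPM, 8 of 8 found), as did smooth muscle markers (131 to 161 CPM and 139 to 192 CPM, 5 of 5 found). Of 5 adipocyte markers ADIPOQ, PLIN1 and LEP were not found, and of 2 satellite cell markers PAX7 was not. The part of these cells in the results below was not tested. In bulk tissue, fewer cells of a type and less RNA per cell cannot be told apart.

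Many members were read rarely. Of the 113, 56 had fewer than 30 reads over the 6 libraries, with a median of 10 reads, and 20 of these had 1 to 5. Among them were several TRIM genes of antiviral defence, such as TRIM21 (4 reads), TRIM38 (14 reads) and TRIM56 (2 reads), and TRIM32 (20 reads), whose mutations cause a limb-girdle muscular dystrophy. At the border of the minimum, ASB16 had 31 reads and was tested, whereas FBXO15, KLHL28 and TRIM3 had 29 each and were not. A further 2 symbols, TRIM52 and KLHL41A, rested on 2 and 4 reads within identifiers whose named reads belonged mostly to GNB2L1 and KLHL41, and were left out of every count. The families differed in how many members were tested: 10 of 15 ASB, 4 of 8 FBXL, 13 of 21 FBXO, 6 of 8 FBXW, 5 of 6 KBTBD, 6 of 25 KLHL and 11 of 30 TRIM genes.

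**Figure D1:**
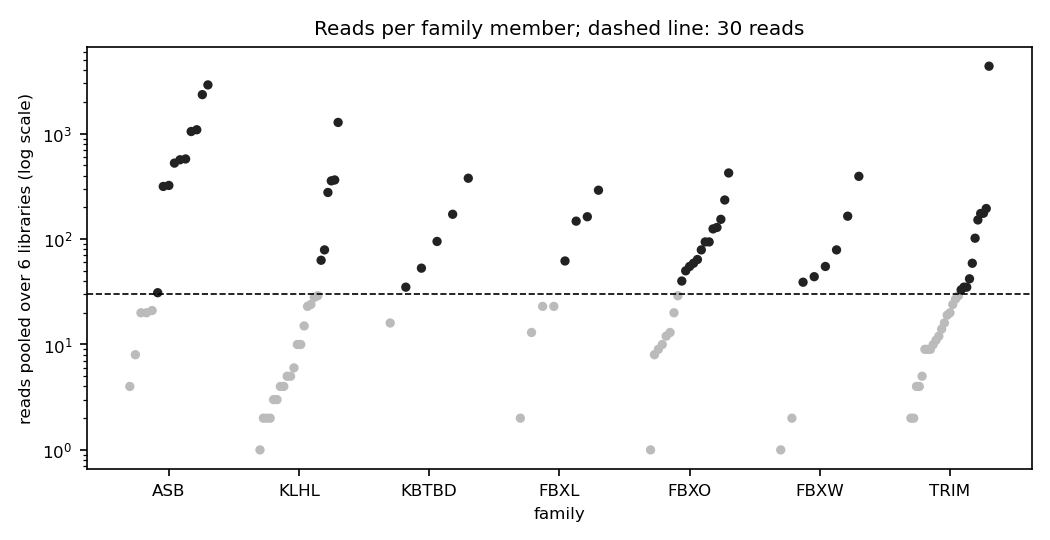
Reads pooled over the 6 libraries (vertical log axis) for the 111 members with an identifier of their own, by family (horizontal axis); each point is a gene, dark at 30 reads or more and grey below. TRIM54, ASB5, ASB12, KLHL24, ASB2 and ASB11 lie above 1000 reads, and most KLHL and TRIM genes lie below the dashed line at 30.

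The 6 members with 1000 or more reads held 61.2% of the reads of the tested members. They were TRIM54 (4371 reads), ASB5 (2904), ASB12 (2348), KLHL24 (1279), ASB2 (1090) and ASB11 (1049). The median tested member had 148 reads, and 24 had fewer than 100, so that differences in those genes were detectable only when large. The name rested on all reads of the identifier in 29 members and on under 50% in 7: ASB3 (7.22%), ASB4 (29.4%), FBXL20 (27.4%), FBXO42 (49.2%), KBTBD12 (41.3%), KLHL12 (3.17%) and TRIM72 (9.52%). The remaining reads of these 7 lay in transcripts that carry no symbol.

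Between the groups, 1 of the 55 tested members rose in cattle-yak, TRIM54, and 5 fell: ASB11, ASB15, TRIM13, KBTBD2 and KLHL24 (edgeR quasi-likelihood test, adjusted p under 0.05 over all 10397 genes). The other 49 did not pass. Of all genes tested, 4.92% rose and 5.08% fell. The members' 1.82% and 9.09% amount to 1 and 5 genes and lie near that background. The median log2 fold change was -0.08 over the members and 0.04 over all genes. When libraries were scaled by their totals only, the median of all genes was 0.23, and members that rose numbered 3 (TRIM54, ASB3 and KLHL38) and those that fell 3 (ASB11, KBTBD2 and TRIM13), and 71.1% of all called genes were higher, against 49.2% with TMM scaling. The count that fell was 1 without yak 3, 3 without any other library except cattle-yak 3, and 6 without cattle-yak 3. TRIM54 did not pass without yak 1, yak 2, yak 3 or cattle-yak 1, which left 0 members that rose without yak 1 or yak 3 and KLHL38 alone without yak 2 or cattle-yak 1. The count that rose was 2 without cattle-yak 3 (TRIM54 and ASB3).

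**Figure D2:**
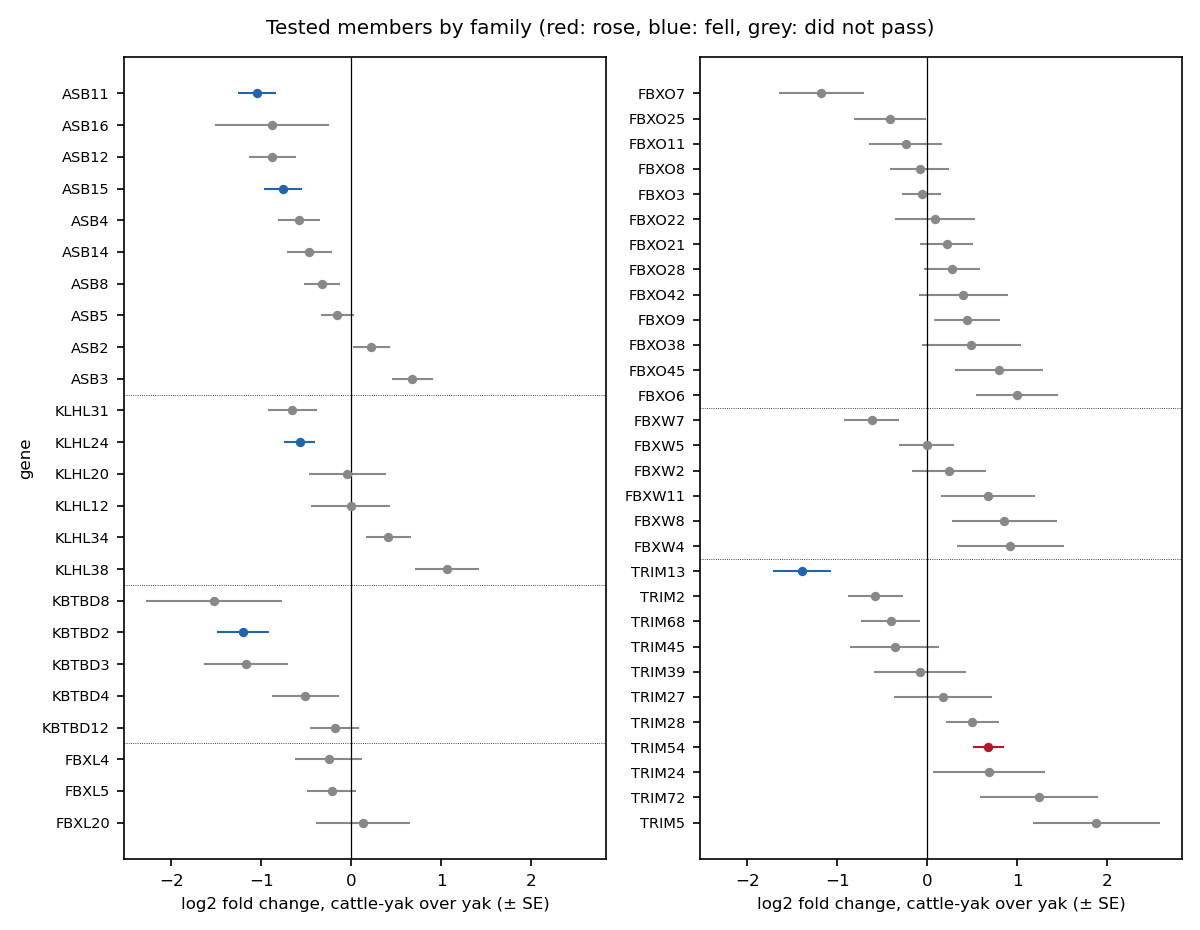
Log2 fold change of cattle-yak over yak (horizontal axis, bars ± SE) for 54 of the 55 tested members, ordered within each family; red rose, blue fell and grey did not pass. The 5 KBTBD genes and 8 of the 10 ASB genes lie left of 0, while 4 of the 6 FBXW and 8 of the 13 FBXO genes lie right of it. Of all genes tested, 47.4% had a value below 0.

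TRIM54, or MuRF3, is a muscle ligase of the sarcomere that binds microtubules, and is a relative of the atrophy ligase TRIM63. It stood at 236, 197 and 244 CPM in the yak libraries and at 420, 339 and 326 CPM in cattle-yak (CPM of genes and transcripts here and below are TMM-scaled). The lowest cattle-yak library was above the highest yak library. It rose 1.602-fold, from 226 ± 25.4 to 362 ± 51.0 CPM (SD, n = 3 each). As a log2 fold change with its SE this was 0.68 ± 0.17, with an edgeR adjusted p of 0.0202. The call was lost without yak 1 (adjusted p = 0.0549), yak 2 (0.0986), yak 3 (0.0585) or cattle-yak 1 (0.063), with log2 fold changes from 0.56 to 0.76 over the 6 fits.

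The other 10 tested TRIM genes included 1 that fell. TRIM13, a ligase anchored in the membrane of the endoplasmic reticulum, had 14.2, 14.9 and 17.8 CPM in yak and 4.30, 7.70 and 5.81 CPM in cattle-yak. Each cattle-yak library had at most 20 reads of it and each yak library at least 32. It fell 2.62-fold (log2 fold change -1.39 ± 0.32, edgeR adjusted p = 0.0122). Without yak 3 it did not pass (0.0608).

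TRIM5, a restriction factor against retroviruses, had 1, 1 and 4 reads in the yak libraries and 8, 14 and 5 in those of cattle-yak, and did not pass (log2 fold change 1.88 ± 0.71, edgeR adjusted p = 0.108). Its group ranges of CPM overlapped slightly (up to 1.82 CPM in yak, from 1.81 CPM in cattle-yak). TRIM72, the membrane repair protein MG53, had 2, 4 and 5 reads in the yak libraries and 11, 17 and 3 in those of cattle-yak, mostly in transcripts without a symbol (1.25 ± 0.66, adjusted p = 0.257). TRIM28, the corepressor KAP1 of zinc finger proteins, was between 9.62 and 10.02 CPM in yak and between 11.2 and 16.9 in cattle-yak, groups that did not overlap, but did not pass (0.50 ± 0.29, adjusted p = 0.309). TRIM2, a ligase studied in neurons, was lower in each cattle-yak library (10.2 to 11.3 CPM) than in any yak library (12.5 to 22.8 CPM) and did not pass either (-0.58 ± 0.30). The remaining 5, TRIM24, TRIM27, TRIM39, TRIM45 and TRIM68, had log2 fold changes from -0.41 (TRIM68) to 0.69 (TRIM24), with overlapping groups. Of 5 interferon genes tested from a list of 17, none passed with edgeR or limma-voom and 1 rose with DESeq2. At an unadjusted edgeR p under 0.05, 2 were higher and 0 lower, against 12.7% and 12.4% of all genes tested. The higher sum of macrophage and leukocyte markers in cattle-yak, given above, stands beside the TRIM5 value, and its part was not tested.

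Of the 10 tested ASB genes, 8 had a negative log2 fold change, against 47.4% of all genes tested. ASB11, a SOCS box adaptor, had 99.3, 105 and 93.8 CPM in yak and 41.8, 37.7 and 63.9 CPM in cattle-yak. No cattle-yak library came near the lowest yak library. It fell 2.07-fold (log2 fold change -1.05 ± 0.21, edgeR adjusted p = 0.00506). It was the 1 called member that passed in each of the 6 fits without a library (adjusted p from 0.00156 to 0.0212). With its reference transcript alone, which holds 8.39% of its reads, its log2 fold change was -0.96 and did not pass (adjusted p = 0.156).

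ASB15, expressed mainly in skeletal muscle, had 45.4, 43.7 and 59.7 CPM in yak and 25.0, 28.9 and 34.1 CPM in cattle-yak. The groups did not overlap, and yak 3 was the highest. It fell 1.69-fold (-0.76 ± 0.21, edgeR adjusted p = 0.0334). The call was lost without yak 1 (0.0617), yak 2 (0.052), yak 3 (0.177), cattle-yak 1 (0.0913) or cattle-yak 2 (0.0732), with DESeq2 (0.0665) and with library size alone (0.0909).

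ASB12 had 234, 208 and 194 CPM in yak and 64.5, 138 and 144 CPM in cattle-yak. Cattle-yak 1 lay far below the other two, and the groups did not overlap. Its log2 fold change of -0.88 ± 0.26 just missed the threshold (edgeR adjusted p = 0.0506), and it passed with DESeq2 (0.0215), without robust dispersion (0.044), with a replicate block (0.0426), with no low count filter (0.000124), with DESeq2 size factors (0.0461) and without cattle-yak 3 (0.0359).

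ASB5, with 175 to 228 CPM in yak and 159 to 226 in cattle-yak, did not pass (-0.16 ± 0.18), and neither did ASB2, a ligase subunit that targets filamins, with 62.5 to 72.6 CPM in yak and 56.3 to 97.0 in cattle-yak (0.22 ± 0.21). ASB4, of vascular development, was at 25.4 to 28.05 CPM in yak and 14.8 to 20.8 in cattle-yak (-0.58 ± 0.23, edgeR adjusted p = 0.128), without overlap. ASB8 and ASB14 were likewise lower in each cattle-yak library than in any yak library, by log2 fold changes of -0.32 ± 0.20 and -0.47 ± 0.25 that did not pass. A part of the ASB14 identifier's reads carried the names DNAH12 and APPL1. ASB16, at 31 reads, had a log2 fold change of -0.88 ± 0.64.

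ASB3 went the other way, with 25.4 to 29.8 CPM in yak and 32.3 to 55.8 in cattle-yak (0.68 ± 0.23, edgeR adjusted p = 0.0727). It passed without cattle-yak 3 (0.0348) and with library size alone (0.0309). Of its reads, 92.8% lay in 1 assembled transcript without a symbol, so the name is uncertain. Over the family, 2 of 10 fell and none rose, against 5.08% and 4.92% of all genes tested, and 8 did not pass. DESeq2 and limma-voom also called 2 lower and none higher. At an unadjusted edgeR p under 0.05, 1 gene (ASB3) was higher and 4 were lower, against 12.7% and 12.4% of all genes tested. The median log2 fold change was -0.53. In this family 6 of 10 ASB genes were lower in each cattle-yak library than in any yak library, and 1 was higher, against 14.6% and 15.2% of all genes tested. These counts are of TMM-scaled CPM. Scaled by library totals alone, ASB8 and ASB14 overlapped between the groups.

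The BTB-kelch genes came next. KBTBD2, which controls the level of a regulatory subunit of PI3-kinase in insulin signalling, had 16.0, 15.3 and 19.6 CPM in yak and 6.25, 8.08 and 7.62 CPM in cattle-yak. Every yak library lay well above the highest cattle-yak library. It fell 2.31-fold (log2 fold change -1.21 ± 0.29, edgeR adjusted p = 0.016). Without yak 3 it did not pass (0.0826).

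The other 4 KBTBD genes were lower on average too, and none passed. Of all genes tested, 47.4% had a negative log2 fold change. KBTBD3 had 4.45, 6.56 and 4.56 CPM in yak and 1.95, 2.31 and 2.54 in cattle-yak (-1.18 ± 0.47, edgeR adjusted p = 0.127). KBTBD8, a CUL3 adaptor in neural crest specification, had 5, 2 and 18 reads in the yak libraries and 2, 5 and 3 in those of cattle-yak, with yak 3 far above the rest (-1.53 ± 0.75). KBTBD4 (-0.51 ± 0.38) and KBTBD12 (-0.19 ± 0.28) overlapped between the groups.

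KLHL24, a regulator of keratin and intermediate filament turnover, had 98.8, 119 and 100 CPM in yak and 69.6, 67.0 and 77.3 CPM in cattle-yak. The groups did not overlap. The decrease was 1.49-fold (log2 fold change -0.57 ± 0.17, edgeR adjusted p = 0.048). This call was lost without each of the 6 libraries in turn (adjusted p from 0.072 to 0.174), with DESeq2 (0.0847), limma-voom (0.0605), the replicate block (0.0765), filterByExpr (0.0503) and library size alone (0.153). Its adjusted p was the highest of the 6 called members.

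KLHL38 had the highest log2 fold change of the KLHL genes, with 11.6, 22.3 and 12.8 CPM in yak and 16.8, 41.2 and 39.6 CPM in cattle-yak. Cattle-yak 1 lay below yak 2, so the groups overlapped. The log2 fold change of 1.06 ± 0.36 did not pass (edgeR adjusted p = 0.0819) but did so without yak 2 (0.0454) or cattle-yak 1 (0.00511), with the replicate block (0.0245), with library size alone (0.0396) and with no low count filter (0.0112). KLHL31, a kelch protein whose loss causes a myopathy in mice, had 22.7 to 38.9 CPM in yak and 15.2 to 26.5 in cattle-yak (-0.65 ± 0.28, adjusted p = 0.149). KLHL34 (0.41 ± 0.25), KLHL20 (-0.04 ± 0.43) and KLHL12 (-0.01 ± 0.44) did not pass.

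**Figure D3:**
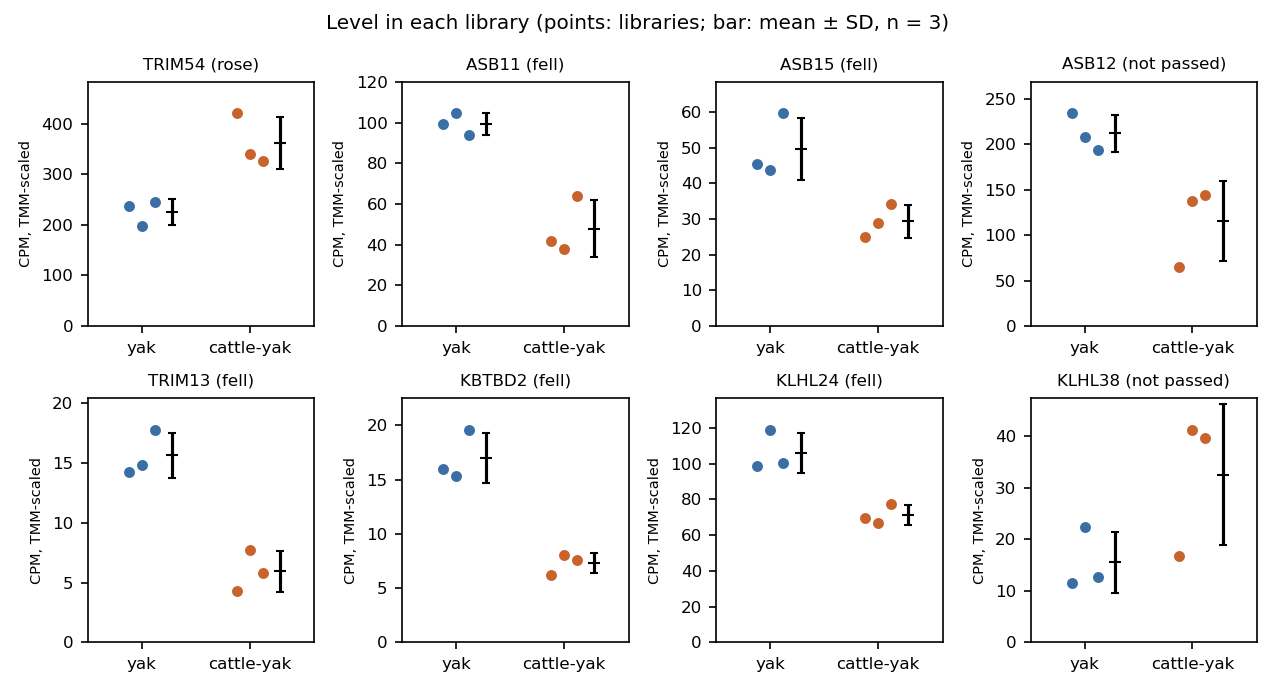
TMM-scaled CPM (vertical axes from 0) of the 6 called members and of ASB12 and KLHL38 in each yak (blue) and cattle-yak (orange) library; bars are the mean ± SD of 3 libraries. In every panel except KLHL38 the points of the groups are separate, and ASB12 has 1 low cattle-yak library at 64.5 CPM.

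No F-box gene passed. Of 23 tested, edgeR, DESeq2 and limma-voom called 0, and at an unadjusted edgeR p under 0.05 there were 1 higher (FBXO6) and 2 lower (FBXO7 among them), against 12.7% higher and 12.4% lower of all genes tested. FBXO7, which acts with PINK1 and parkin in mitophagy, had 10, 10 and 13 reads in the yak libraries and 5, 6 and 6 in those of cattle-yak (log2 fold change -1.17 ± 0.47, edgeR adjusted p = 0.13). FBXO6, which recognises glycoproteins in the clearance of misfolded proteins, had 7, 4 and 8 reads in the yak libraries and 17, 15 and 13 in those of cattle-yak (1.00 ± 0.45, adjusted p = 0.181). Neither pair of groups overlapped, at these low counts.

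FBXW7, the subunit that degrades cyclin E, MYC and NOTCH, had 28.05, 36.3 and 34.6 CPM in yak and 17.2, 13.1 and 34.1 CPM in cattle-yak. Cattle-yak 3 lay within the yak range and the other 2 lay well below it. The log2 fold change of -0.61 ± 0.31 did not pass (edgeR adjusted p = 0.231), and it was -1.11 and passed without cattle-yak 3 (0.0209). The iron sensor FBXL5 (-0.22 ± 0.27), the mitochondrial FBXL4 (-0.25 ± 0.37) and FBXL20 (0.13 ± 0.52) did not pass.

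The most read FBXO gene, FBXO3, was at 27.99 to 31.0 CPM in yak and 24.6 to 33.4 in cattle-yak (-0.06 ± 0.21). FBXO28 (0.28 ± 0.31) and FBXO21 (0.22 ± 0.30) followed in reads. The other 8 FBXO genes (FBXO8, FBXO9, FBXO11, FBXO22, FBXO25, FBXO38, FBXO42 and FBXO45) had log2 fold changes from -0.41 (FBXO25) to 0.80 (FBXO45), and their groups overlapped. FBXW5 was at 9.18 to 13.8 CPM in yak and 9.62 to 13.7 in cattle-yak (log2 fold change 0.00 ± 0.30), FBXW2 had a log2 fold change of 0.24 ± 0.41, and FBXW4, FBXW8 and FBXW11, at 39 to 55 reads, had 0.92, 0.86 and 0.68, none of which passed.

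Replicate spread differed between members. Among the 6 members with 1000 or more reads the coefficient of variation went from 5.39% up to 14.4% in yak and up to 38.3% in cattle-yak, the last in ASB12. Over all 55 the median was 23.5% in yak and 29.4% in cattle-yak, and 30 members had the higher value in cattle-yak. Summed over the 11 tested TRIM genes, reads were 247 to 299 CPM before TMM scaling in yak and 383 to 522 in cattle-yak, of which TRIM54 made up most. Summed over the 10 ASB genes, they were 665 to 765 CPM in yak and 518 to 659 in cattle-yak. These sums are descriptions and were not tested.

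Long reads were also counted by transcript. The 55 members had 603 transcripts, from 1 (KLHL34) to 88 (TRIM54) per gene with a median of 8, and 102 of them, in 41 members, had 30 or more reads. Of these 102, 10 carried a reference identifier and 92 were assembled from the reads. In cattle-yak 4 rose and 7 fell (edgeR adjusted p under 0.05 over 27036 transcripts), against 6.52% and 6.27% of all transcripts tested. Of the 11, 8 lay in called genes and moved the same way as the gene. The count was 3 without yak 1 or yak 3, 4 without yak 2, 6 without cattle-yak 1 or cattle-yak 2, and 6 with the replicate block.

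In TRIM54, the main transcript TALONT001236470 held 50.6% ± 3.42 (SD, n = 3) of the gene's reads in yak and 47.3% ± 2.64 (SD, n = 3) in cattle-yak. It stood at 137, 105 and 120 CPM in yak and 224, 171 and 162 in cattle-yak, each cattle-yak library above each yak library (log2 fold change 0.62 ± 0.20, edgeR adjusted p = 0.0467). A minor transcript, TALONT001236486, went from 3.82, 6.44 and 4.29 CPM in yak to 12.02, 19.2 and 13.6 in cattle-yak (1.61 ± 0.36, adjusted p = 0.00693). In ASB11, 3 assembled transcripts fell, by 1.49, 1.49 and 1.18 on the log2 scale. The largest of them, TALONT001311318, had 47, 65 and 65 reads in the yak libraries and 18, 12 and 43 in those of cattle-yak. A pair of ASB11 transcripts near 4 to 13 reads a library, TALONT001311532 and TALONT001311533, had log2 fold changes of 0.03.

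The transcripts that fell elsewhere were TALONT000804681 of KBTBD2 (-1.21 ± 0.35), TALONT000314851 of KLHL24 (-1.04 ± 0.32), TALONT000218417 of TRIM13 (-2.01 ± 0.64) and TALONT001361487 of ASB12. The last went from 72.5, 62.1 and 66.2 CPM in yak to 19.5, 42.2 and 34.3 CPM in cattle-yak (-1.06 ± 0.26, edgeR adjusted p = 0.0116), in a gene that itself missed the threshold. In KLHL38, also not called as a gene, TALONT000067019 rose from 3.82, 5.52 and 6.19 CPM to 6.63, 20.05 and 15.2 CPM (1.42 ± 0.41, adjusted p = 0.0313).

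**Figure D4:**
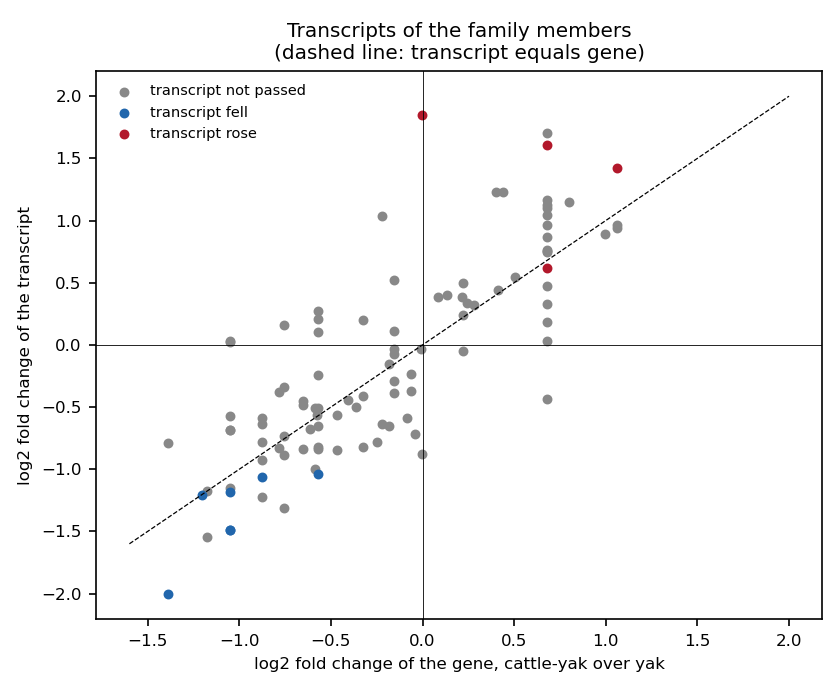
Log2 fold change (cattle-yak over yak) of the 102 tested transcripts of family members (vertical axis) against that of their gene (horizontal axis); red rose, blue fell, grey did not pass, and the dashed line marks equal values. Transcripts share reads with their gene, so most lie near the line, and 1 FBXW5 transcript lies at 1.85 above a gene at 0.

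Usage, the share of each transcript within its gene, could be tested in 18 members with at least 2 transcripts of 5% or more. FBXW5, a WD-repeat F-box protein, was the 1 that passed (edgeR diffSpliceDGE, adjusted p = 0.0493), against 5.38% of all 2863 genes tested for usage. Its transcript TALONT001047859 had 3, 4 and 1 reads in the yak libraries and 13, 13 and 8 in those of cattle-yak, and rose from 10.96% ± 7.52 to 38.9% ± 12.3 of the gene's reads (transcript log2 fold change 1.85 ± 0.58, edgeR adjusted p = 0.0432). The other tested transcript, TALONT001047862, had 38.7%, 33.3% and 66.7% in yak and 14.29%, 12% and 48.3% in cattle-yak, with overlapping groups. The usage call was lost without yak 1 (0.158), yak 2 (0.0539), yak 3 (0.278), cattle-yak 1 (0.134) or cattle-yak 2 (0.19). In FBXL5 the reference transcript held 70.5%, 64.8% and 72.3% of reads in the yak libraries and 49.2%, 52.9% and 51.1% in those of cattle-yak. These did not overlap, and the gene did not pass for usage (adjusted p = 0.0699). Whether assembled transcripts of a gene differ by splicing or by allele was not tested.

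The machinery that the adaptors bind was read more deeply. Of 14 genes of the cullin-RING core, 11 were tested, 1 fell and 0 rose by edgeR, DESeq2 and limma-voom alike. Of all genes tested by edgeR, 5.08% fell and 4.92% rose. At an unadjusted p under 0.05, 0 were higher by any of them. By edgeR 2 were lower at that threshold, against 12.7% higher and 12.4% lower of all genes tested. The gene that fell was SKP1, the adaptor that joins F-box proteins to CUL1. It stood at 615, 528 and 545 CPM in yak and 330, 298 and 304 CPM in cattle-yak, with a wide gap between the groups (log2 fold change -0.86 ± 0.16, edgeR adjusted p = 0.00314). With reference transcripts alone it was 0.64 and did not pass (0.527). The elongins ELOB (0.03 ± 0.20) and ELOC (-0.36 ± 0.16), CUL3 (0.25 ± 0.26) and CUL5 (-0.26 ± 0.17), on which ASB and kelch proteins depend, did not pass.

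Of 24 genes of cullin neddylation and exchange, 22 were tested, 1 rose and 2 fell. The shares of 4.55% and 9.09% lie near the 4.92% and 5.08% of all genes tested. At an unadjusted edgeR p under 0.05, 1 was higher and 5 lower, against 12.7% and 12.4% of all genes. In TMM-scaled CPM, 8 of the 22 were lower in each cattle-yak library than in any yak library. In the other direction there was 1, against 14.6% lower and 15.2% higher of all genes. This list was also chosen with earlier results of these data known. COPS4, a subunit of the COP9 signalosome that takes NEDD8 off cullins, had 239, 222 and 264 CPM in yak and 118, 93.5 and 113 CPM in cattle-yak (-1.16 ± 0.17, edgeR adjusted p = 0.000572). COPS8, another subunit, fell by 0.77 ± 0.21 (adjusted p = 0.0268), which did not pass without yak 1 (0.0585), yak 2 (0.0765), yak 3 (0.0949) or cattle-yak 2 (0.0814) and with library size alone (0.0624). DCUN1D2, which helps attach NEDD8, rose from 26.7, 17.5 and 29.2 CPM to 78.2, 56.6 and 39.2 CPM (1.24 ± 0.27, adjusted p = 0.00908).

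**Figure D5:**
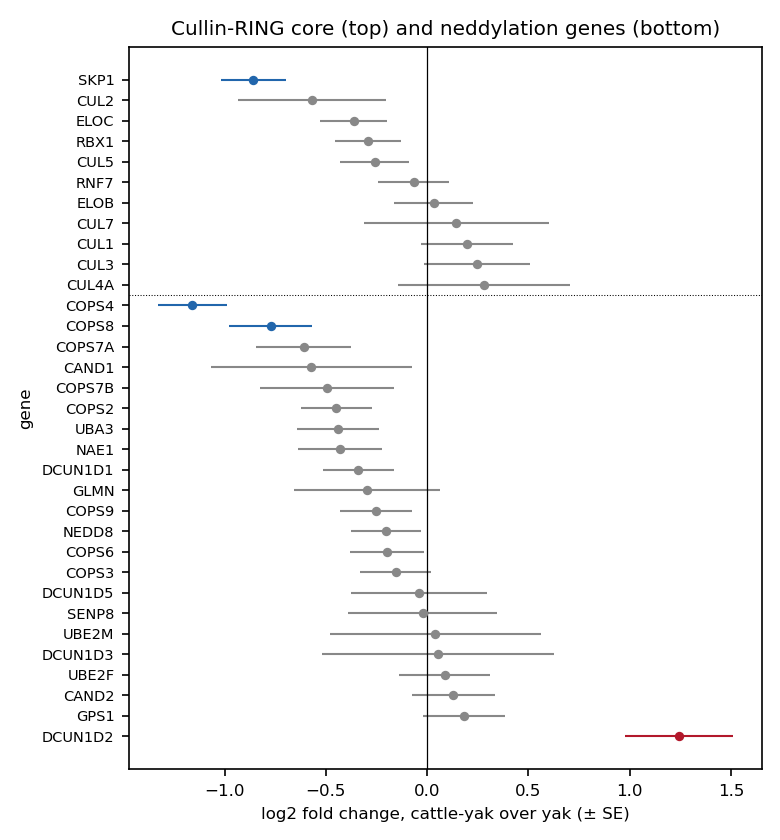
Log2 fold change of cattle-yak over yak (horizontal axis, bars ± SE) of the 11 tested cullin-RING core genes (above the dotted line) and the 22 neddylation and exchange genes (below); red rose, blue fell, grey did not pass. SKP1, COPS4 and COPS8 are the genes that fell and DCUN1D2 the gene that rose.

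Relatives of the families under other names were read in the same fit, from a list chosen with earlier results of these data known. Of 31 such genes 12 were tested and 2 fell (16.7%, against 5.08% of all genes tested). None rose by edgeR, DESeq2 or limma-voom, against 4.92% of all genes by edgeR. At an unadjusted edgeR p under 0.05, 0 were higher and 2 lower, against 12.7% and 12.4% of all genes tested. IVNS1ABP, an actin-binding BTB-kelch protein, went from 302, 286 and 396 CPM to 154, 130 and 224 CPM (-0.95 ± 0.21, edgeR adjusted p = 0.00969), and did not pass without yak 3 (0.0631) or with reference transcripts only (-0.67, adjusted p = 0.352). IPP, another BTB-kelch protein, had 4.45, 6.56 and 9.57 CPM in yak and 0.391, 0.385 and 1.45 CPM in cattle-yak (-3.10 ± 0.61).

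Of the 8 family genes that the rule left out, TRIM63 (log2 fold change 1.74 ± 0.28), FBXO40 (1.10 ± 0.17) and KLHL40 (1.02 ± 0.20) rose, each without overlap of the groups, and these genes had been picked with earlier results of these samples known. FBXO40 did not pass when only reads carrying its symbol were counted (0.62, edgeR adjusted p = 0.0516). FBXO32 (1.03 ± 0.37, adjusted p = 0.129), KLHL41 (-0.49 ± 0.16, 0.0688) and FBXO30 (0.01 ± 0.30) did not pass, although FBXO32 did so without yak 1 (0.00145), with DESeq2 (0.0263), with no low count filter (0.000328) and with the replicate block (0.046). KLHL41 passed with no low count filter (-0.56, adjusted p = 0.043). These KLHL41 values are for the identifier with most reads under that symbol (16715). Another identifier that took the name KLHL41 held 11433 reads. Its unscaled counts ran from 1525 to 1875 over the yak libraries. Over the cattle-yak libraries they ran from 1925 to 2285. No fall is seen in these counts, and their fold change is not given here. The name FBXO30 rested on 4.90% of the reads of its identifier. For KLHL23, the identifier with most reads under that symbol took the name PHOSPHO2, with KLHL23 on 24.7% of its reads, and fell (-1.02 ± 0.23, edgeR adjusted p = 0.00957). A second identifier, with fewer reads and all of them under KLHL23, fell as well (-3.21 ± 0.59, adjusted p = 0.00683). The symbol KBTBD13 was not found, so that gene was not analysed here. A list of 26 other ligases and ligase subunits holds these 8 genes. Of it 20 were tested, 4 rose and 1 fell (KLHL23, by its second identifier). The shares were 20% and 5%, against 4.92% and 5.08% of all genes tested. The fourth to rise was NEDD4L (1.88 ± 0.41). The other called genes of the list are among the 8 left-out genes, picked with earlier results known. The list's shares therefore cannot be read as enrichment.

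Among 10 known partners of the families in muscle, 2 rose and 1 fell (20% and 10%, against 4.92% and 5.08% of all genes tested). The partners were chosen with earlier results of these data known, so these shares cannot be read as enrichment. LMOD3, the thin filament protein that KLHL40 stabilises, fell by 2.31 ± 0.21 (edgeR adjusted p = 8.39e-06). Desmin (DES), the muscle intermediate filament, rose by 0.66 ± 0.17, a call lost without yak 2 (0.113) or yak 3 (0.0699), and TTN by 0.59 ± 0.17 (adjusted p = 0.0398), a call that held without cattle-yak 3 but was lost without any of the other 5 libraries (0.0851 to 0.163).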

How the data were processed

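The labels' protocols give TRIzol extraction of total RNA and nanopore libraries made with the cDNA-PCR kit SQK-PCS109. Fastp, minimap2 and GSNAP appear in the submitters' processing notes with no roles, and the sources used here name no counting tool or genome build. Each transcript has a whole-number read count and a CPM, both deposited by the authors, and the CPM equalled count over library total within 0.005.

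The table held 179856 transcripts, of which 61 had no gene identifier and stayed out of the gene sums (0.00249% of the counts or less in each library). A gene took a symbol that held at least 50% of its symbol-bearing reads and 2% of all its reads. Genes with 30 or more pooled reads were fitted together with edgeR 4.0.16 in R 4.3.3 (TMM scaling, robust quasi-likelihood test, Benjamini-Hochberg adjustment, threshold 0.05), transcripts likewise, and usage with diffSpliceDGE. The SE is the log2 fold change over the square root of F. Alternatives included DESeq2 1.42.0, limma 3.58.1 (voom), other scalings and filters, and leaving out each library. The fit was tested on simulated data. The members and lists were chosen with earlier results of these data known. Named by rule were called members, the 3 most read of each family, called transcripts in genes not called, genes the family rule leaves out and called list genes. Other members were named after their values were seen. The values of 1 tested F-box gene are not reported here. RefSeq's gene table (Bosgru_T2T1.0) held 107 of the 113 symbols. Library pairs differed by more than sampling noise. The PCR reads carry no molecular identifiers, so counts are not counts of independent molecules. Similar gene copies and overlapping genes may share reads. CPM is not per length, so levels were compared only within a gene.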

Additional observations from a re-analysis of the deposited data

How the results depend on the processing

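Of 900 log2 fold changes of the 55 members under the alternatives, 820 kept direction and side of the threshold, 29 lost and 14 gained a call, and 37 changed sign, of which 1 belonged to a called member, KLHL24 with reference transcripts only (0.41). Called members made up only 104 of the 900 values, and all 29 lost calls fell among these 104. The count of members that rose was 3 with library size alone, 2 with no low count filter, 2 with the replicate block and 0 with reference transcripts only. The count that fell was 3 with library size alone and 0 with reference transcripts only, a fit that holds 10 members and 188 changed genes in all. With the replicate block 6 member transcripts changed, and usage was called in 0 members with a minimum share of 10% or by the Simes method. Without 1 library, 0 to 2 members rose, 1 to 6 fell, 526 to 1057 of all genes changed, 3 to 14 member transcripts changed and 0 to 1 members changed usage. Same-numbered libraries did not deviate together (correlations -0.04, -0.01 and 0.01). With 3 libraries a group, these values cannot settle whether the numbers are a pairing, which the labels do not state. The replicate block gave 2 members that rose and 5 that fell. The cause was not tested.

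Uncalled genes changed sign with library size alone in ASB5 (0.0285), FBXO3 (0.13), FBXO8 (0.10), FBXW5 (0.19), KLHL12 (0.18), KLHL20 (0.16) and TRIM39 (0.12), with filterByExpr in FBXW5 (0.0339) and KLHL12 (0.0312), with 100 or more reads in FBXW5 (0.0530), and in FBXO30 with no low count filter (-0.0768), limma-voom (-0.0676) and the replicate block (-0.0416). SKP1 was 0.64 with reference transcripts only. Without 1 library, log2 fold changes ranged from -0.28 to 0.51 in FBXL20, -0.51 to 0.31 in FBXL4, -0.45 to 0.10 in FBXO11, -0.41 to 0.36 in FBXO22, -0.19 to 0.0348 in FBXO3, -0.16 to 0.31 in FBXO30, -0.26 to 0.13 in FBXO8, -0.0684 to 0.44 in FBXW2, -0.16 to 0.16 in FBXW5, -0.39 to 0.11 in KBTBD12, -0.22 to 0.23 in KLHL12, -0.52 to 0.22 in KLHL20, -0.47 to 0.16 in TRIM39 and -1.09 to 0.0572 in TRIM45. Of the 55 tested members, 24 had under 100 reads.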
